A study of Mus musculus with 2 samples.

Results

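The genes described here encode proteins of the gap junction and its neighbourhood: the connexins Gja1 (connexin 43) and Gjc1 (connexin 45), the pannexin Panx1, and Tjp1, the scaffold known as ZO-1. They are 4 of the 18193 genes that had a probe set of their own on the array, and all 10 probe sets whose annotation names 1 of these genes and no other were taken. The 4 genes were chosen by the signals and ratios of these same arrays, so every value below is a description and supports no test. The cells were 3T3-L1, mouse preadipocytes of an established line that mature into adipocytes under a mixture of insulin, dexamethasone and isobutylmethylxanthine. One culture received an siRNA against Phf21a, the gene for BHC80, a chromatin-reading subunit of the LSD1 and CoREST corepressor complex. The other received siGL3, an siRNA against luciferase that served as control. Both were induced 24 h after transfection and harvested 24 h later, in DMEM with 25 mM glucose and 10% FBS. Each group held 1 array (n = 1), so there is no replicate error and no check of any difference, and the 2 arrays limit the precision.

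Gap junctions are clusters of channels through which neighbouring cells exchange ions, cyclic nucleotides and other small molecules. Each cell contributes a ring of connexin subunits, and the rings of adjoining cells dock end to end. Connexin 43 is the main connexin of fibroblasts and preadipocytes, and its C-terminal tail binds ZO-1, which sets the size of the junction plaque. Pannexins resemble connexins in their fold across the membrane but act mostly as channels to the outside of the cell, where they release ATP.

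Signals are MAS5 intensities on a linear scale, and each log2 ratio is Phf21a siRNA over control siRNA. Detection required a signal of at least 51.3, the median of all signals, on at least 1 array. The figure after ± is a local spread: the 84th minus the 16th percentile of log2 ratios, divided by 2, among the 1000 detected probe sets nearest in mean signal. It describes scatter between these 2 arrays, true changes included, and says nothing of the variation from culture to culture. Phf21a itself had signals of 306 on the Phf21a siRNA array and 768 on the control array, a log2 ratio of -1.33 ± 0.52. Its other detected probe sets gave -1.35 ± 0.57 and -0.73 ± 0.64, and the remaining one, undetected at 43.8 and 39.2 in the same order, gave 0.16. Median signals over all probe sets were 49.5 and 53.0 in the same order. The ratios of 3′ to 5′ signal, a sign of RNA quality, were 0.816 and 0.792 for the Gapdh control and 1.22 and 1.15 for the Actb control.

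Connexin 43 messenger RNA was lower in the Phf21a siRNA cells on every probe set, while the other detected members lay near their control level. Gja1 (Entrez gene 14609) was 7.04-fold lower on the probe set that represents the gene. Gjc1 and Tjp1 were slightly higher as the arrays were scaled by the authors, by less than their local spread, and both turned lower under scaling to poly-A control RNAs. Panx1 was not detected on either array. Of the 10 member probe sets 9 were detected, and of the 4 genes 3.

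**Figure D1:**
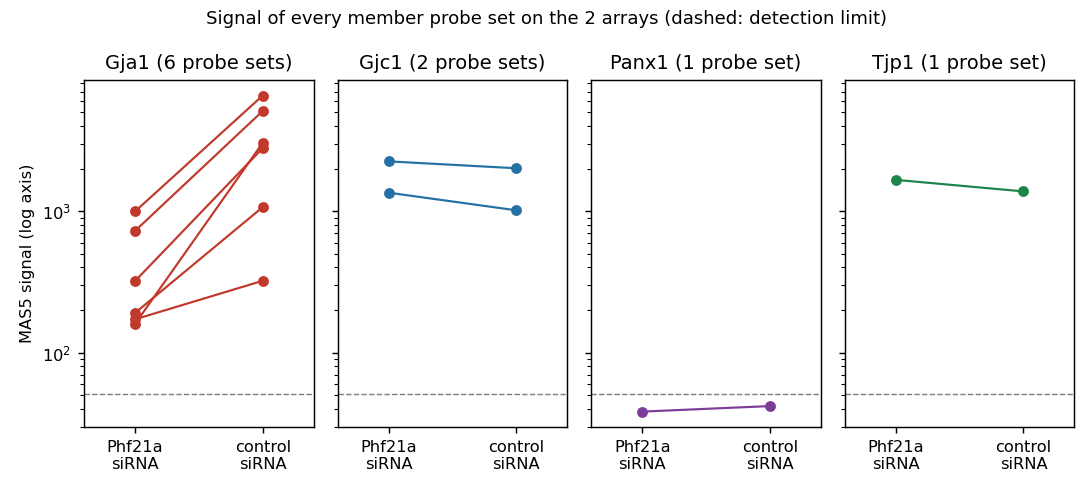
MAS5 signal (log axis) of each of the 10 probe sets on the Phf21a siRNA array (left point) and the control siRNA array (right point), joined by a line for each probe set. The dashed line is the detection limit of 51.3. All 6 Gja1 lines sit lower on the left, the Gjc1 and Tjp1 lines are nearly level, and Panx1 lies under the limit on both arrays.

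The probe set 1415800_at of Gja1 gave a signal of 726 in Phf21a siRNA cells, against 5107 in control siRNA cells, a log2 ratio of -2.82 ± 0.45. The probe set 1415801_at, annotated to the same sequence accession, gave 191 in Phf21a siRNA cells and 1068 in control cells (-2.48 ± 0.50). These are the only Gja1 probe sets without the suffix _x_at, which marks probe sets with probes that may also match other transcripts. They differed from each other by 0.33 on the log2 scale, less than either local spread.

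The 4 probe sets ending in _x_at were lower too, but by differing amounts. The probe set 1437992_x_at gave 996 in Phf21a siRNA cells and 6563 in control cells (-2.72 ± 0.41), which left 15.2% of the control signal. The probe set 1438945_x_at gave 321 in Phf21a siRNA cells and 2790 in control cells (-3.12 ± 0.49). These lie within 0.64 log2 units of each other and of the unsuffixed pair, more than the local spread of any of the 4. The 4 ran from 5.58-fold to 8.69-fold lower. They are what is left of the 6 once the highest and lowest ratios are set aside, so their closeness comes in part from that choice. The remaining pair stood at either end. The probe set 1438650_x_at gave 160 in Phf21a siRNA cells and 3042 in control cells (-4.25 ± 0.52), 19.0-fold lower. The probe set 1438973_x_at gave 172 in Phf21a siRNA cells and 322 in control cells (-0.91 ± 0.56), 1.88-fold lower and the only one short of 2-fold. Every signal on both arrays was above the detection limit.

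Over the 6 probe sets the median log2 ratio was -2.77, or 6.81-fold, and the range was 3.34. Of the 6, 5 were at least 2-fold lower, and the same 5 at least 3-fold lower, where 6.73% of the 23901 detected probe sets were at least 2-fold lower and 5.31% at least 2-fold higher. The comparison chose Gja1, so nothing is read from this contrast. The 6 probe sets read the same RNA in the same 2 samples, so they are not separate observations. Without 1438973_x_at the median was -2.82 and the range 1.77. The mean was -2.75 over the 4 _x_at probe sets and -2.65 over the other 2. Counted from the lowest log2 ratio of all detected probe sets, 1438650_x_at stood at rank 1, 1438945_x_at at 13, 1415800_at at 24, 1437992_x_at at 34, 1415801_at at 59 and 1438973_x_at at 1935.

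**Figure D2:**
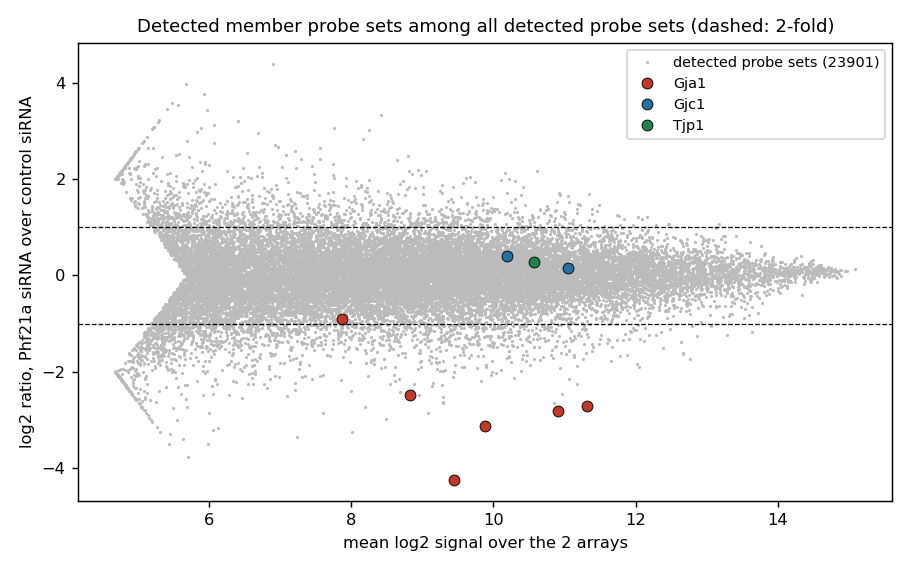
Log2 ratio (Phf21a siRNA over control siRNA) against mean log2 signal for the 23901 detected probe sets (grey), with the 9 detected member probe sets coloured by gene and dashed lines at 2-fold. Of the 6 Gja1 points 5 lie far under the cloud at their signal, and the Gjc1 and Tjp1 points lie inside it.

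At the level of genes, 10 of the 11301 detected genes had a lower log2 ratio than Gja1, and 4 did among the 7134 brighter ones, those with a signal at or over the 75th percentile of all signals (461) on at least 1 array. In all, 5.44% of detected genes were at least 2-fold lower, and 5.66% at least 2-fold higher.

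Most genes are read by fewer probe sets, and 165 had at least 6 detected. Gja1 had the lowest median of the 165, and the next was -1.33, for Reep3. The central 80% of these medians lay between -0.65 and 0.46. At least 5 probe sets were 2-fold lower in 3 of the 165 genes (1.82%), namely Gja1, Tmem167 with 5 of 7 and Igf2bp3 with 6 of 6. Reep3, Tmem167 and Igf2bp3 were picked after their values were seen. Gja1 was also among the genes whose probe sets disagreed most in size. Its range of 3.34 compares with a median range of 0.94 over the 165 genes (quartiles 0.63 and 1.30), and 1 other, Ube2f (3.96, likewise picked afterwards), had a wider one. The probe sets of Ube2f ran from -1.86 to 2.10, on both sides of 0, whereas those of Gja1 all lay under 0, which held for 29 of the 165 genes, Gja1 included.

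**Figure D3:**
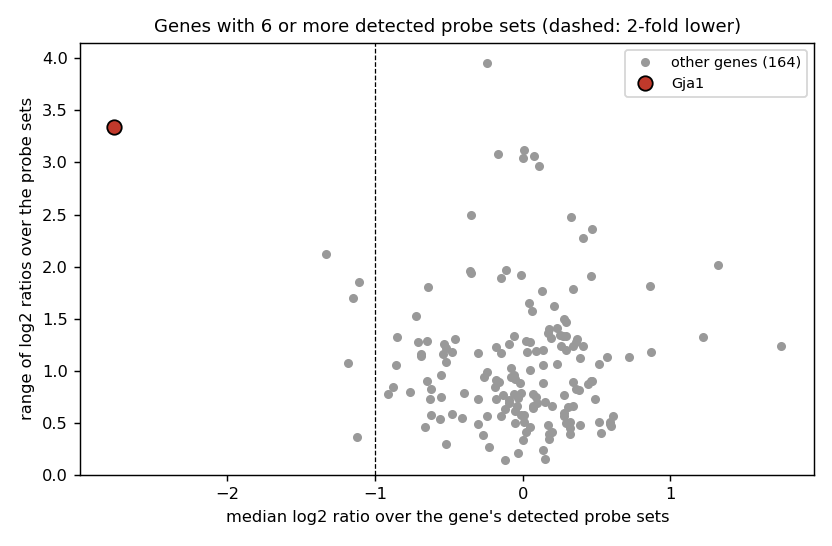
Range of log2 ratios over a gene's detected probe sets (vertical axis, log2 units) against their median (horizontal axis, log2 ratio Phf21a siRNA over control siRNA) for the 165 genes with 6 or more detected probe sets. Gja1 (red) stands alone at the left with a median of -2.77, and its range of 3.34 is second to 1 gene.

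The stretch before the annotated start of Gja1 is shown beside that of Tjp1, a member read by the array at nearly equal signal in both cultures, with matches to the binding motifs of transcription factors that the array also measured. Capitals mark AP-1 sites (TGANTCA) for Gja1 and GC boxes (GGGCGG or its reverse complement) for Tjp1. Both are the 250 bases before a start site from RefSeq on build GRCm38.p6, Gja1 at chr10:56377050-56377299 on the plus strand and Tjp1 at chr7:65371245-65371494 on the minus strand, which lies before 1 of several annotated starts.
Gja1: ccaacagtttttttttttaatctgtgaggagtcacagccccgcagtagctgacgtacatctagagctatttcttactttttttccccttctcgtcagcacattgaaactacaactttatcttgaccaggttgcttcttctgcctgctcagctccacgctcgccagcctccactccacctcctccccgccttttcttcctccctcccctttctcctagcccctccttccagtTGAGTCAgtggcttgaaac
Tjp1: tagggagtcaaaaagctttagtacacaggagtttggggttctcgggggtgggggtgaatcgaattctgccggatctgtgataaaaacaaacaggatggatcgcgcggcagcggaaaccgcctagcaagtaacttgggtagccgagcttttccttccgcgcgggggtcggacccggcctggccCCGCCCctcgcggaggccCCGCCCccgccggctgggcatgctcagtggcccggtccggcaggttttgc

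Each motif was searched on both strands. The Gja1 stretch held 1 AP-1 match, which begins 19 bases before the start, and 6.75% of 32851 stretches of this length hold one. It held 0 GC boxes, while the Tjp1 stretch held 2, a motif found in 32.7% of stretches. Neither held the T-box motif GGTGTG, which 16.3% hold. Of the 250 bases 125 were G or C in the Gja1 stretch, with 6 CpG, near the medians of 131 and 6 over all stretches. The Tjp1 stretch had 158 and 22. A match is a description of the letters and was not tested as a binding site.

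Transcription factors known to act on the Gja1 promoter were also read, and their part in the Gja1 difference was not tested. Of 11 listed, 9 were detected, with a median log2 ratio of 0.03, against 0.03 over all detected genes. Of the 9, 0 passed 2-fold in either direction, against 5.44% lower and 5.66% higher of all detected genes. For so few genes a count of 0 is near those shares. The AP-1 subunit Jun had log2 ratios of 0.24 ± 0.41 and, by a second probe set, -0.40, with Fos at -0.05 ± 0.53 and Junb at 0.07 ± 0.45. Sp1, which binds GC boxes, was at -0.05 ± 0.41. These 4 were picked after their values were seen, as was Tcf7l2, whose detected probe sets ran from -0.73 to 0.05. The member furthest from 0 was Snai1, a repressor of epithelial genes, with 1520 in Phf21a siRNA cells and 2356 in control cells (-0.63 ± 0.45).

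Gjc1 (Entrez gene 14615), whose channels have a smaller conductance than those of connexin 43, was detected by both of its probe sets. The probe set 1449094_at gave 2248 in Phf21a siRNA cells and 2010 in control cells (0.16 ± 0.44). The probe set 1447787_x_at gave 1350 in Phf21a siRNA cells and 1014 in control cells (0.41 ± 0.46). Both were above 0, within their local spread and 0.25 log2 units apart. The log2 ratio of Gja1 minus that of Gjc1 was -2.98, a gap that 1 array a group leaves without a test.

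No further connexin was detected. Of 20 connexin genes listed, 6 had no probe set of 1 gene and 12 lay under the detection limit on both arrays, among them Gjb2 at 18.9 in Phf21a siRNA cells and 33.9 in control cells, Gja4 at 29.3 and 35.6 in the same order, and Gja5 at 1.82 and 1.89. These 3, picked after their values were seen, encode connexins best known from epithelia and vessels. Gja1 and Gjc1 were thus the only connexins with a measurable signal here, 1 of them over 2-fold lower.

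Panx1 (Entrez gene 55991) was read by a single probe set, with 38.3 in Phf21a siRNA cells and 41.9 in control cells. Both signals are under the detection limit, where the local spread was 1.23, so its log2 ratio of -0.13 says little in either direction. Panx2 and Panx3 were not detected either. The other large-pore channels that were detected were all higher, of which Lrrc8a, Lrrc8c and Calhm2 turned lower under poly-A scaling and Lrrc8d when suffixed probe sets were left out. Lrrc8d, a subunit of the volume-regulated anion channel, had 657 in Phf21a siRNA cells and 323 in control cells (1.03 ± 0.51), although its second probe set gave -0.50. Lrrc8c, another such subunit, had a log2 ratio of 0.71 ± 0.47, though its other probe set gave 0.07. Lrrc8a, the subunit the channel cannot do without, was at 0.48 ± 0.49. Calhm2, of the calcium homeostasis modulator family, was at 0.68 ± 0.53. Of 4 detected genes in this list 1 was at least 2-fold higher (25.0%) and 0 lower, against 5.66% and 5.44% of all detected genes.

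Tjp1 (Entrez gene 21872), which links the tail of connexin 43 and tight junction proteins to actin, was read by a single probe set, 1417749_a_at. It gave 1664 in Phf21a siRNA cells and 1379 in control cells (0.27 ± 0.47). The scaffold was therefore 1.21-fold higher, within the local spread, and the log2 ratio of Gja1 minus that of Tjp1 was -3.09.

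**Figure D4:**
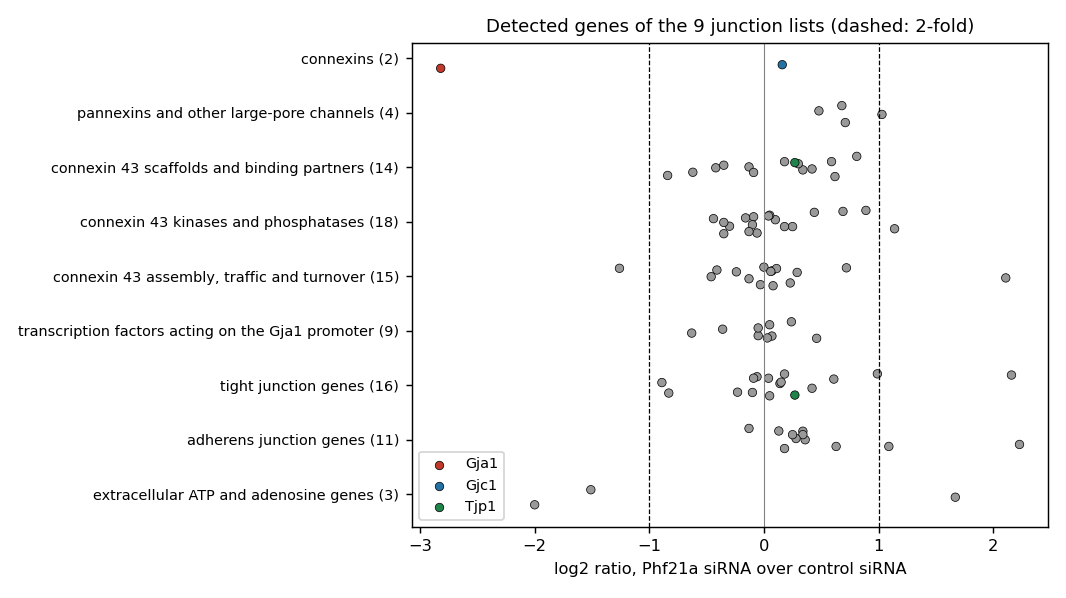
Log2 ratio (Phf21a siRNA over control siRNA) of each detected gene in the 9 lists of junction genes, with the number of detected genes in brackets, dashed lines at 2-fold and the members coloured. Gja1 at -2.82 is the lowest of the 88 genes, and 77 of the 88 lie within 2-fold.

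Together the 9 lists of junction genes, their partners and regulators had 88 detected genes of the 133 with a probe set. Of these 4 were at least 2-fold lower, Gja1 included, and 7 at least 2-fold higher, with a median log2 ratio of 0.08. These are shares of 4.55% lower and 7.95% higher, against 5.44% and 5.66% of all detected genes in the same order.

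Among 14 detected scaffolds and binding partners of connexin 43 the number past 2-fold was 0 in either direction, against 5.44% lower and 5.66% higher of all detected genes, and the median was 0.23. That count rests on 1 probe set a gene: those of Mapre1, a microtubule tip protein picked after its values were seen, ran from -1.74 to 0.30. The furthest from 0 was Cav2, a caveolar coat protein, with 3457 in Phf21a siRNA cells and 6169 in control cells (-0.84 ± 0.36), and its second probe set gave 0.41.

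Kinases and phosphatases that act on the connexin 43 tail had a median of -0.01 over 18 detected genes. Of these 1 passed 2-fold, on the higher side (5.56%, against 5.66% of all detected genes). It was Prkce, a protein kinase C isoform, with 289 in Phf21a siRNA cells and 131 in control cells (1.14 ± 0.57, second probe set 0.53). That count too rests on 1 probe set a gene. Camk2d, within 2-fold at 0.89 and picked after its values were seen, had detected probe sets from 0.12 to 1.06. The genes of assembly, traffic and turnover had a median of 0.06 over 15 detected genes. In each direction 1 passed 2-fold (6.67%, against 5.44% lower and 5.66% higher of all detected genes). Eps15, an endocytic adaptor that takes part in the internalisation of connexin 43, had 941 in Phf21a siRNA cells and 2248 in control cells (-1.26 ± 0.47), but its other detected probe set gave 0.81. Rab20, a small GTPase of membrane traffic, had 88.4 in Phf21a siRNA cells and 20.5 in control cells, the second under the detection limit, so that raising both to the limit gave 0.79.

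Of the tight junction genes 16 of the 29 with a probe set were detected, at a median of 0.10. Past 2-fold was 1, on the higher side (6.25%, against 5.66% of all detected genes). Cgn, which encodes the junction adaptor cingulin, had 126 in Phf21a siRNA cells and 28.1 in control cells, the second under the limit (1.30 once both are raised to the limit). Adherens junction genes, which assemble the contacts beside which gap junctions form, had a median of 0.34 over 11 detected genes. Past 2-fold were 2, on the higher side (18.2%, against 5.66% of all detected genes). Both were dim: Cdh3, P-cadherin, had 63.2 in Phf21a siRNA cells and 13.5 in control cells, and Nectin1, an immunoglobulin-like adhesion protein, had 108 in Phf21a siRNA cells and 50.6 in control cells. In each the control signal was under the limit, and raising both to the limit put Cdh3 at 0.30. The 3 detected probe sets of Nectin1 ran from -0.03 to 1.13, and their mean of 0.73 is short of 2-fold. In Nectin3, within 2-fold at 0.25 and picked after its values were seen, another probe set gave -1.43.

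Few genes for sensing and clearing extracellular ATP were detected, 3 of the 12 that had a probe set. Of the 3, 1 was past 2-fold higher (33.3%) and 2 lower (66.7%), against 5.66% and 5.44% of all detected genes. Shares of so few genes say little. P2rx4, an ATP-gated cation channel, had 2376 in Phf21a siRNA cells and 749 in control cells (1.67 ± 0.48). Its 3 detected probe sets ran from -0.41 to 1.95, and the lowest is the only one without a suffix. Entpd2, an enzyme that breaks down extracellular ATP, had 16.9 in Phf21a siRNA cells and 67.5 in control cells, and Nt5e, which makes adenosine from AMP, had 19.9 and 57.0 in the same order. For both enzymes the signal in Phf21a siRNA cells was under the detection limit and the local spread was 1.83. Raising both signals to the limit put Entpd2 at -0.40 and Nt5e at -0.15, short of 2-fold.

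The genes with signals most like those of each member were sought by the distance in log2 signal over the 2 arrays. Those of Gja1 lay farther off than those of the other members. Among 7134 genes the nearest were Ctdsp2 (distance 0.51, log2 ratio -2.15), Ube2n (0.55, -2.25) and Lamtor5 (0.76, -1.88), a phosphatase, a ubiquitin-conjugating enzyme and a Ragulator subunit. Ctdsp2 had another probe set at -0.21. The nearest genes to Gjc1 were Cul4a, Bcas2 and Rad17, with distances of 0.01 to 0.03. Those to Tjp1 were Usp42, Zfp512 and Sap30l, with distances of 0.01 to 0.02. Those to Panx1, sought among all 11301 detected genes, were Gpr20, Gpsm3 and Iigp1, at 0.29 to 0.30. Panx1 itself was under the detection limit, so no detected gene could lie close to it. The genes found sat at the limit, with control signals of 51.3 to 51.6, and both they and their distances were set by that filter. Over 2 arrays such likeness says only that both signals are close.

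Markers of the cell type were checked beside these values. Of 6 adipocyte markers with a probe set 4 were detected, with summed signals of 10007 in Phf21a siRNA cells and 7722 in control cells and a median log2 ratio of 0.58. Pparg, with 814 and 512 in the same order (0.67 ± 0.52), and Fabp4, with 5849 and 3502 (0.74 ± 0.37), were higher by more than their local spread. Lpl was at -0.15 ± 0.41, Cd36 was above the limit in Phf21a siRNA cells alone (53.0 against 37.5), and Adipoq and Cebpa were undetected. All 7 preadipocyte and fibroblast markers with a probe set were detected, with summed signals of 62672 in Phf21a siRNA cells and 65849 in control cells. Of these 1, Dlk1, was at least 2-fold lower (-1.05 ± 0.29, second probe set -1.78). Pdgfrb was higher, with 3743 in Phf21a siRNA cells and 2092 in control cells (0.84 ± 0.42, second probe set 0.13). The median of the list was -0.16, with 3 markers above 0 and 4 below. Endothelial markers were detected in 0 of 5 cases, with summed signals of 51.7 in Phf21a siRNA cells and 74.2 in control cells. Epithelial markers were detected in 2 of 5 cases, with Cdh1, Krt18 and Krt19 undetected. Epcam, detected by an _x_at probe set alone, had 79.5 in Phf21a siRNA cells and 146 in control cells (-0.88 ± 0.65). Krt8 had 57.1 and 61.9 in the same order (-0.12 ± 0.63). Muscle markers were detected in 3 of 7 cases, at sums of 14055 and 10941, most of which came from Acta2 with 13330 and 10504 (0.34 ± 0.25). Tagln was at least 2-fold higher (1.04 ± 0.53), and Myod1 and Myh11 were undetected. Leukocyte markers were detected in 5 of 8 cases, at sums of 730 and 419, with Ptprc undetected. Of the 5, Csf1r was at least 2-fold higher with 452 in Phf21a siRNA cells and 200 in control cells (1.18 ± 0.57, probe sets from 0.18). The dim Fcer1g had 54.4 and 25.7 in the same order (1.08 ± 1.38), and Laptm5 22.3 and 66.4 (-1.58 ± 1.30). The part of these differences in the Gja1 result was not tested. In a bulk sample fewer cells expressing a gene and less of its RNA per cell cannot be told apart.

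The size of the Gja1 difference moved by more than its local spread under 1 of 9 alternatives, scaling to the poly-A controls, RNAs added to the sample before labelling. Scaled to them, which moved the median of all detected genes to -0.70, Gja1 was at -3.54, Gjc1 at -0.56, Panx1 at -0.86 and Tjp1 at -0.45. The share of lower genes among those past 2-fold was then 95.5%, against 49.0% as deposited. Relative to the median of all detected genes the members stood at -2.84 for Gja1, 0.13 for Gjc1, -0.16 for Panx1 and 0.24 for Tjp1 under that scaling, as they did in the deposited values. That scaling applies 1 factor (1.65) to a whole array, so these relative values could not change and their agreement is no support. Those of Gjc1 and Tjp1 were also within their local spreads of 0.44 and 0.47. Directions given above for Gjc1, Tjp1, Lrrc8a, Lrrc8c and Calhm2 are therefore only relative to other genes, and turn under poly-A scaling. That of Gjc1 also turned under scaling to the hybridisation controls (-0.07), and that of Panx1 under loess (0.42).

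**Figure D5:**
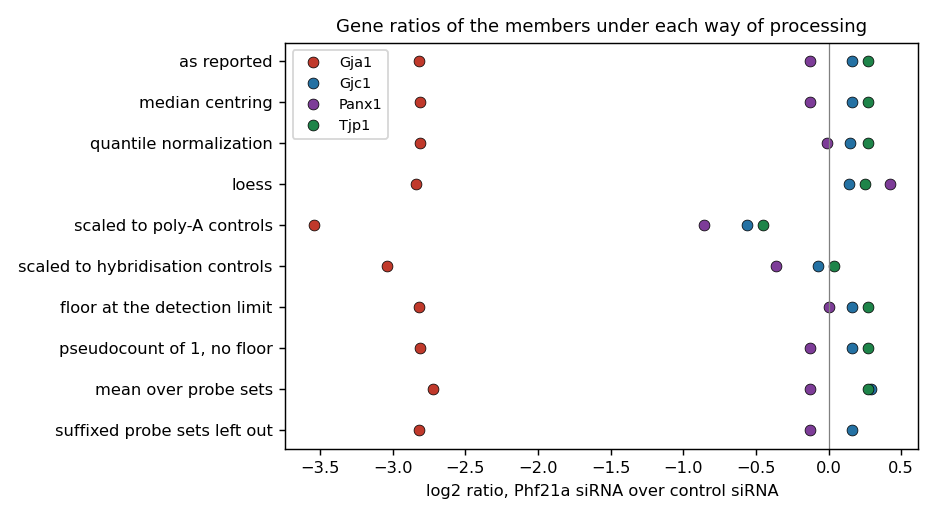
Log2 ratio (Phf21a siRNA over control siRNA) of each member under the values as reported and 9 other ways of processing, with Tjp1 missing where suffixed probe sets were left out. Gja1 lies between -3.54 and -2.72 throughout, and Gjc1, Panx1 and Tjp1 fall on both sides of 0.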

How the data were processed

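Total RNA (1 ug) was labelled as biotinylated cRNA and measured on 1 array per group. The deposited intensities are linear MAS5 signals that the authors computed, per the submitters' processing notes (version: not given in the sources used here). Trimmed of 2% of probe sets at each end, both arrays had a mean of 500. Such scaling cannot show a change in total messenger RNA per cell.

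Of 45101 probe sets 64 were controls and 34945 mapped to 1 gene in the array's annotation; 34741 of these matched a gene table (GRCm38.p6) by Entrez number, which changed 0 symbols. Signals were raised to the 25th percentile of all signals (12.9) before log2. A gene is represented by its brightest detected probe set by mean log2 signal, leaving out _x_at where another exists. With 1 array per group no test was run, and called means at least 2-fold.

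The members and lists were chosen with earlier results of these data known. The genes named are Phf21a, the members, all detected genes of the connexin and large-pore channel lists, up to 4 genes furthest from 0 past 2-fold in each other list (or the 1 furthest where none passed), and the 3 genes nearest to each member. Others are marked as picked after their values were seen. Recovery of differences past 2-fold and the local spread were tested on simulated data, and the choice of probe set on a small made-up example. The other steps had no such test. Scripts ran in Python 3.11.15 (pandas 2.3.3, numpy 2.4.6, statsmodels 0.14.6, scipy 1.17.1) and figures were drawn with matplotlib 3.10.9.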

Additional observations from a re-analysis of the deposited data

How the results depend on the processing

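A log2 ratio is counted as moved when it shifts by more than its local spread, and a count when it shifts by more than 1.5 times. Gja1 kept its direction in 9 of 9 alternatives (-3.54 to -2.72), moving only under poly-A scaling (-3.54). Some of these could not change it: its probe set has no suffix and both signals lay above the limit. The raised floor and the omission of suffixed probe sets thus returned the same -2.82, and a pseudocount of 1 could hardly alter it. Gjc1 turned under poly-A (-0.56) and hybridisation scaling (-0.07), Tjp1 under poly-A scaling (-0.45) and Panx1 under loess (0.42). With suffixed probe sets left out Tjp1 had no value, and Gja1 had 2 probe sets, both at least 2-fold lower, with a range of 0.33. With detection at the 75th percentile that range was 1.77. Of all detected genes, those at least 2-fold lower (615) numbered 3151 under poly-A scaling, 1013 under hybridisation scaling, 375 with the floor at the detection limit, 240 with detection at the 75th percentile, 1262 with no detection limit, 1570 at 1.5-fold and 207 at 3-fold. Those higher (640) numbered 148, 374, 259, 1023, 1707 and 188 under the same settings without the raised floor. In the 9 junction lists the lower genes (4) numbered 18, 7, 2, 2, 7, 9 and 2 in the first order. The higher ones (7) numbered 3 and 4 under the control scalings, 4 with probe sets averaged, 2 with detection at the 75th percentile, 18 at 1.5-fold and 4 at 3-fold. The other settings changed these counts by less than 1.5 times.

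Ratios of other genes that turned under poly-A scaling were Bcas2 (-0.55), Calhm2 (-0.05), Cul4a (-0.58), Lrrc8a (-0.25), Lrrc8c (-0.01), Rad17 (-0.52), Sap30l (-0.48), Usp42 (-0.45) and Zfp512 (-0.45). Under hybridisation scaling Bcas2 (-0.05), Cul4a (-0.08) and Rad17 (-0.02) turned, as did Bcas2 with probe sets averaged (-0.12). Under loess Gpr20 (0.06), Gpsm3 (0.01) and Iigp1 (0.00) turned, and with suffixed probe sets left out Lrrc8d (-0.50) and P2rx4 (-0.41). The alternatives for genes that are no members were added after the data were seen. The cause of these shifts was not tested beyond what each scaling does to all genes alike. Signals near the detection limit, Panx1 among them, limit what can be read. No paired analysis was possible because each group holds 1 array.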
